A study of Mus musculus with 4 samples.

Results

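Group 2 innate lymphoid cells (ILC2) of the mouse nasal mucosa were picked out of 4 single-cell RNA libraries by their transcripts. A cell counted as an ILC2 when it held at least 1 UMI of Gata3 and at least 2 UMIs summed over Il1rl1, Il17rb, Calca and Hs3st1, where a UMI (unique molecular identifier) stands for 1 captured mRNA molecule. It also had to hold no UMI of Cd3e, Cd3d, Cd3g, Cpa3, Mcpt8, Cd79a and Cxcr2, and fewer than 2 UMIs over C1qa, C1qb and C1qc, which removes T cells, mast cells, basophils, B cells, neutrophils and macrophages. Of 72320 cells with at least 500 UMIs, at least 200 genes and under 10% mitochondrial UMIs, 170 (0.235%) met this rule. They were 46 of 25727 cells in the Vehicle library, 28 of 17498 in Vehicle-OVA, 64 of 20278 in Ribavirin and 32 of 8817 in Ribavirin-OVA. The cells were selected on the levels of these 15 genes in these same libraries, so those levels are given as a description and are not tested.

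All libraries were made from CD45+ cells of nasal mucosa of C57BL/6 mice aged 8 weeks, after enzymatic digestion of the tissue. OVA is ovalbumin, the allergen used to model allergic rhinitis by sensitization and intranasal challenge, and ribavirin is a nucleoside analogue used as an antiviral drug; its dose and schedule are not given in the sources used here. Each group was 1 library (Vehicle, without OVA or ribavirin; Vehicle-OVA; Ribavirin, without OVA; Ribavirin-OVA), and how many mice each pooled is not stated. Differences between groups were therefore not tested and cannot be told apart from differences between mice or captures, and every interval given is an exact 95% interval for counting error only. Values given 4 in a row stand for Vehicle, then Vehicle-OVA, then Ribavirin, then Ribavirin-OVA.

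ILC2 are lymphocytes without rearranged antigen receptors that sit in barrier tissues and answer alarm signals from the epithelium. Interleukin 33 acts on them through ST2, encoded by Il1rl1, and interleukin 25 through the receptor subunit encoded by Il17rb, while Gata3 and Rora encode transcription factors needed for their development. Activated ILC2 are a known source of interleukin 5, which recruits eosinophils, of interleukin 13, which drives mucus production, and of amphiregulin (Areg), a growth factor of tissue repair.

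The bases upstream of Il5, Il13 and Rora are shown because Gata3 was required of every cell and these genes encode the cytokines the cells are named for and their other lineage factor. In GRCm38.p6 (RefSeq) the 250 bases before the start of each gene, 5′ to 3′ on the gene's strand, are chr11:53720544-53720793 (plus strand) for Il5, chr11:53634703-53634952 (minus strand) for Il13 and chr9:68653536-68653785 (plus strand) for Rora. Capitals mark matches to the GATA hexamers AGATAA and AGATAG, together with TGATAA and TGATAG, searched on both strands.
Il5: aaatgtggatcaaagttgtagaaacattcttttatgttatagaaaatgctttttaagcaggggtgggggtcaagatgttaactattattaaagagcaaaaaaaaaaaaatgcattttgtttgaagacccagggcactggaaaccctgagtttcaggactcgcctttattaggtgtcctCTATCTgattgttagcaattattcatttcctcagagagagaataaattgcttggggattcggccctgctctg
Il13: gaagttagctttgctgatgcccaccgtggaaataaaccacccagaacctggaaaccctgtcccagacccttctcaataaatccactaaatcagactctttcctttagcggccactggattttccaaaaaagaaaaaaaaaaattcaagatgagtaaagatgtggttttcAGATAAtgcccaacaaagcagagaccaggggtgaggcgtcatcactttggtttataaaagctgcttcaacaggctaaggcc
Rora: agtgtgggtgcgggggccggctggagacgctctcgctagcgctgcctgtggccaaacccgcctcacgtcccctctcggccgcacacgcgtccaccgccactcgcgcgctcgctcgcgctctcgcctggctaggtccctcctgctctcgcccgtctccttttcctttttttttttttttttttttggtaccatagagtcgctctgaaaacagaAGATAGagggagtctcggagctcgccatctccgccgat
Each window held 1 match: CTATCT, which is AGATAG on the opposite strand, 72 to 67 bases before the start of Il5, AGATAA 81 to 76 bases before that of Il13, and AGATAG 38 to 33 bases before that of Rora. Of 32851 promoters, 8718 (26.5%) held at least 1 of these hexamers in the same window, and a match is a match of letters only.

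The genes that chose the cells were carried unevenly. Il1rl1 had a UMI in 145 of the 170 cells (85.3%), Hs3st1, a heparan sulfate sulfotransferase, in 122 (71.8%), Calca, the gene of the neuropeptide CGRP, in 92 (54.1%) and Il17rb in 82 (48.2%). At least 3 of these 4 genes were seen together in 92 cells, and the median sum over them was 9 UMIs. Most cells lay well inside the limits: 11 held exactly 2 UMIs of the 4 genes and 33 exactly 1 Gata3 UMI. Just outside, 29 cells met every part except for a sum of 1 over the 4 genes, 584 held no Gata3 UMI, and 462 held at least 1 Cd3 UMI. These last cells, here called the Cd3-positive counterparts, carried a median of 10 to 11 Cd3 UMIs, and 34 of them just 1.

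Of the genes that the rule did not use, some followed the name in most cells and others did not. Il7r, the interleukin 7 receptor chain of lymphoid cells, had a UMI in 43 of 46, 24 of 28, 64 of 64 and 27 of 32 cells, and Rora in 36, 22, 56 and 28. Arg1, the arginase found in ILC2 of resting lung, was seen in 26, 16, 39 and 17 cells. Il13 and Il5, which the rule did not use either, had a UMI in just 16 and 19 of the 170 cells. Thy1, a surface gene of lymphocytes, was seen in 12, 11, 15 and 12 cells and was called lower than in the counterparts. Over all 170 cells Il7r was not called different from the counterparts, as given below. Of the 10 T cell markers listed, the 3 Cd3 genes were set to 0 by the rule, and 4 to 5 of the others had any UMI, at a summed 79.8 to 204 counts per 1000000 UMIs of the summed cells (CPM). Lat, which codes for a signalling adaptor, gave 21, 15, 20 and 15 UMIs and so the larger part of them. Cd4 gave 6, 0, 0 and 2 UMIs, Cd8b1 9 in 1 Vehicle cell and none elsewhere, and Cd5 and Foxp3 at most 3 per library. The ILC3 list summed to 3, 0, 2 and 3 UMIs, with none of Il23r, and the NK cell and ILC1 list to 6, 14, 6 and 24, of which Gzma, a granule protease, gave 2, 10, 2 and 8 and Eomes none. Of the mast cell and basophil list, Kit, which is not particular to mast cells, gave 19, 27, 46 and 28 UMIs, Cyp11a1 0, 2, 0 and 1, Mcpt4 1 in Vehicle-OVA and none elsewhere, and Ms4a2, Fcer1a, Gata2, Cma1 and Tpsb2 were at 0. Ptgdr2, the prostaglandin D2 receptor CRTH2 that often marks ILC2, had no UMI in any member or counterpart.

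A few cells went against the name. No UMI of Ptprc, the CD45 gene, was seen in 19 members (4, 3, 8 and 4). Of these, 2 in each OVA library held 16 to 219 UMIs of the epithelial and neuron markers Epcam, Krt8, Krt18, Omp and Cnga2. These 4 cells held 33.0% of all ILC2 UMIs in Vehicle-OVA and 40.0% in Ribavirin-OVA, no Il7r UMI, and 1 Gata3 UMI each. Levels compared between libraries are therefore given for the other 166 cells (46, 26, 64 and 30), a choice made after the data were seen, with the value over all 170 beside them where it differs in its call. Shares, numbers of cells and UMIs, and the comparison with the counterparts are over all 170 unless stated. In the Vehicle library 1 member carried all 48 Siglech UMIs, a plasmacytoid dendritic cell gene, and 118 of the 251 Cd74 UMIs. UMIs of abundant genes of other cells were also present. Per library the neutrophil genes S100a8 and S100a9 gave 20 to 79 and 29 to 181 UMIs and Jchain, of antibody-secreting cells, 16 to 72, each in at least 12 cells. The neutrophil genes were not evenly spread: in Vehicle the highest cell gave 117 of 181 S100a9 UMIs and the highest for S100a8 41 of 79. In Ribavirin 1 cell gave 48 of 145 S100a9 UMIs. The macrophage list summed to 326 to 1729 CPM over 170 cells and to 256 to 400.3 CPM over 166, and whether these UMIs came from free RNA was not tested.

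The libraries held 91742940 to 171873110 UMIs, and an ILC2 held a median of 3851 to 5076 UMIs and 1413.5 to 2098 genes. The median mitochondrial share of ILC2 was 3.47% in Vehicle, 4.32% in Vehicle-OVA, 3.67% in Ribavirin and 5.92% in Ribavirin-OVA. Pairs of libraries shared 57 to 174 cell barcodes, none of them between 2 members. Scrublet marked 1 member as a doublet.

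ILC2 made up a larger share of the cells in both ribavirin libraries than in the vehicle libraries, and a similar share with and without OVA. The shares of the vehicle libraries were 0.179% (0.131 to 0.238) without OVA and 0.160% (0.106 to 0.231) with it, and those of the ribavirin libraries 0.316% (0.243 to 0.403) and 0.363% (0.248 to 0.512). The intervals of the 2 vehicle libraries overlapped each other and did not reach the share of either ribavirin library. As ratios of shares this was 1.77 (1.19 to 2.64) for Ribavirin over Vehicle and 2.27 (1.32 to 3.91) for Ribavirin-OVA over Vehicle-OVA. For OVA the ratio was 0.895 (0.539 to 1.46) with vehicle and 1.15 (0.728 to 1.78) with ribavirin, both with 1 inside the interval. With a mitochondrial limit of 5%, 11 Ribavirin-OVA members were left, the ratio to Vehicle-OVA was 1.33 (0.574 to 2.91) and that to Ribavirin 0.572 (0.270 to 1.11). A share depends on all other CD45+ cells captured, so more ILC2 and fewer of the rest cannot be told apart.

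The counterparts were selected on the same sum over the 4 genes, with a Cd3 UMI, and carried these genes in other proportions: Hs3st1 had a UMI in 79 of the 462 (17.1%). They numbered 94, 80, 96 and 192, or 0.365%, 0.457%, 0.473% and 2.18% of the cells. Ribavirin-OVA stood far above the other libraries, with a share 4.60 times (3.58 to 5.94) that of Ribavirin and 4.76 times (3.65 to 6.26) that of Vehicle-OVA. Of all cells with the 4-gene sum and Gata3, those without Cd3 were 32.9% in Vehicle, 25.9% in Vehicle-OVA, 40.0% in Ribavirin and 14.3% (9.98 to 19.6) in Ribavirin-OVA. When each cell was thinned to 1500 UMIs before the rule was applied, the ILC2 share ratio for OVA became 1.68 (0.982 to 2.90) with vehicle and 3.40 (2.21 to 5.26) with ribavirin. Of the cells then taken as ILC2, 24.1%, 29.0%, 7.5% and 47.2% carried a Cd3 UMI at full depth, so that the rule's split between ILC2 and T cells moved with depth.

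**Figure D1:**
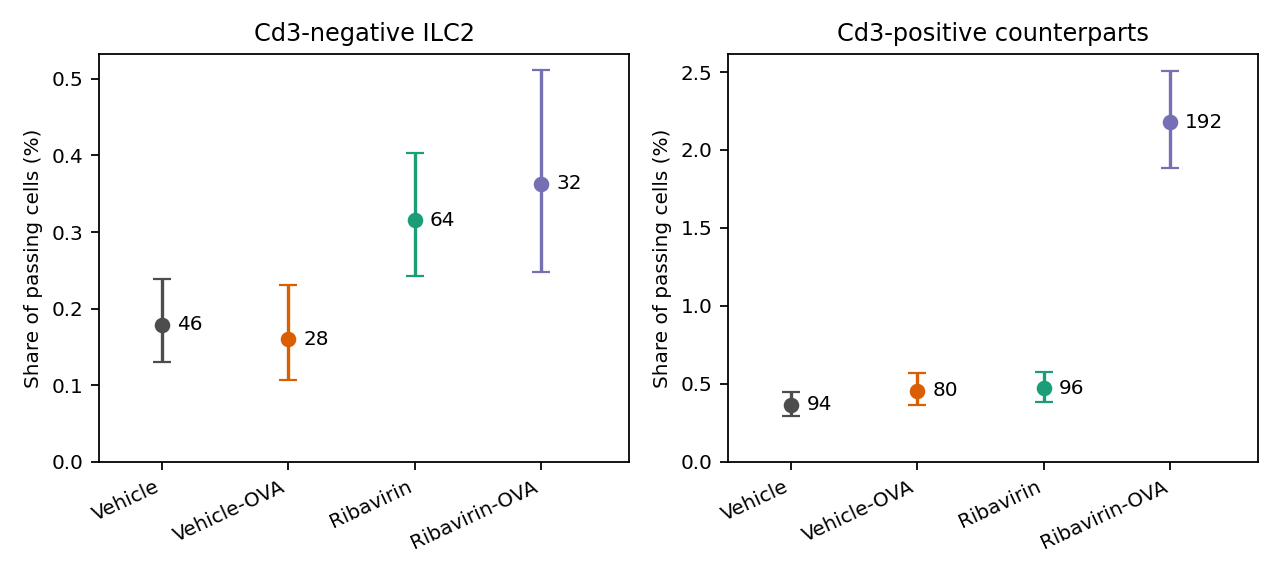
Share of passing cells (%, y axis from 0) that were Cd3-negative ILC2 (left) or Cd3-positive counterparts (right) in each library (x axis), with exact 95% intervals for counting error as bars and the number of cells beside each point. ILC2 shares of the ribavirin libraries lie above those of the vehicle libraries, while counterparts stand out in Ribavirin-OVA, at 2.18%.

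Type 2 cytokine transcripts were seen in a minority of ILC2, and no higher share was seen with OVA at full depth. At least 1 UMI of Il13, Il5, Il4 or Il9 was found in 13 of 46 ILC2 (28.3%), 6 of 28 (21.4%), 14 of 64 (21.9%) and 7 of 32 (21.9%). The 4 shares lay close together and their intervals overlapped. In the counterparts the same shares were 8.51%, 47.5%, 18.8% and 52.6%, high in both OVA libraries and low in both others. NK cells, used as the background because they should lack these transcripts, held none in 425, 62, 377 and 94 cells. With 421, 61, 377 and 93 of them deep enough to be thinned to 1500 UMIs, a count of 0 (3 cells taken as its limit) allows shares of up to 0.713%, 4.92%, 0.796% and 3.23%. NK cells had median depths of 3394 to 5260 UMIs, near those of ILC2.

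Depth differed between the classes, with medians of 5251 to 8732 UMIs in the counterparts. At 1500 UMIs per cell, 11.1% (3.71 to 24.1), 7.41% (0.910 to 24.3), 9.38% (3.52 to 19.3) and 16.7% (5.64 to 34.7) of ILC2 held such a UMI. The counterparts then had 3.19%, 34.2% (23.9 to 45.7), 7.29% and 26.6% (20.5 to 33.4). In both OVA libraries the ILC2 share lay below the interval of the counterparts, while the intervals of the classes overlapped. The difference between the classes was not tested across the 4 libraries for this share.

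**Figure D2:**
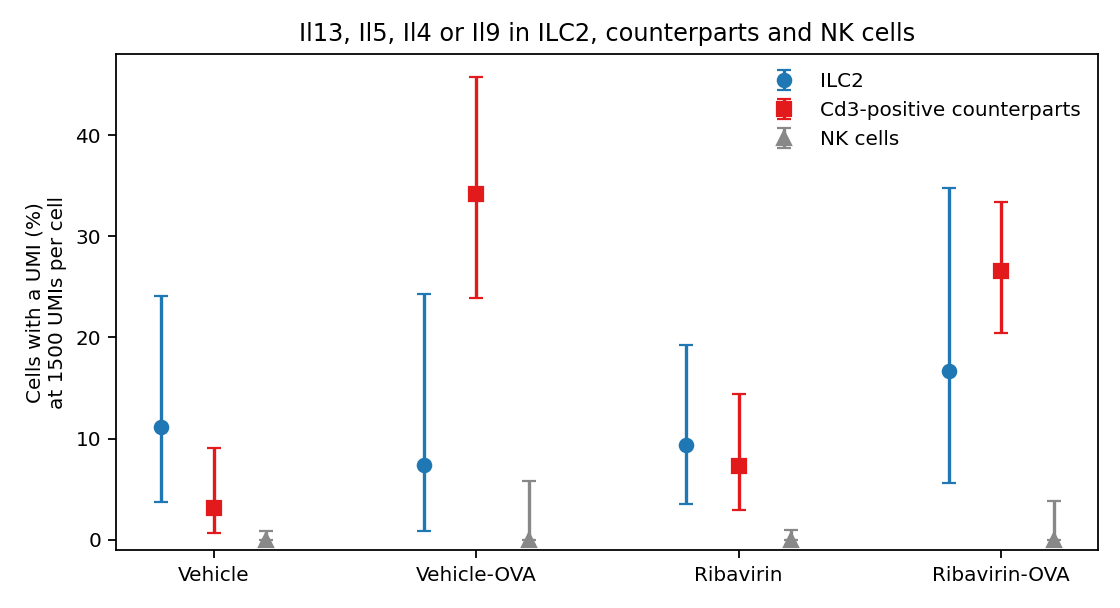
Share of cells (%, y axis) with at least 1 UMI of Il13, Il5, Il4 or Il9 after thinning each cell to 1500 UMIs, for ILC2 (circles), Cd3-positive counterparts (squares) and NK cells (triangles) in each library (x axis), with exact 95% intervals as bars. The counterparts are high in both OVA libraries (34.2% and 26.6%), ILC2 lie between 7.41% and 16.7% in all of them, and NK cells are at 0.

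Il13 gave 9, 4, 8 and 10 UMIs in ILC2, from 6, 2, 4 and 4 cells, and 3, 257, 41 and 633 UMIs in the counterparts. ILC2 thus held 22.5% of the 40 Il13 UMIs of the whole Vehicle library and 0.496% of the 2017 of Ribavirin-OVA, and the counterparts 7.5% and 31.4%. Il5 gave 3, 17, 34 and 6 UMIs, but 15 of the 17 in Vehicle-OVA and 22 of the 34 in Ribavirin came from 1 cell each. Il4 gave 7, 2, 10 and 4 UMIs and Il9 none in any ILC2 or counterpart. Csf2, the gene of the growth factor GM-CSF, was at 14 and 12 UMIs in Vehicle and Ribavirin and at 0 in both OVA libraries, where the counterparts also held none. Of the 16 ILC2 with an Il13 UMI, 13 (81.3%) also held Arg1, which was found in 57.6% of all 170, and 3 held Il5. In the counterparts Arg1 was seen in 40.6% of the cells with Il13 and in 26.2% of all. These shares are at full depth, and the part of depth was not tested.

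Areg, the amphiregulin gene, had UMIs in 25 of 46, 12 of 28, 38 of 64 and 15 of 32 cells. Its level over the 166 cells was 1371, 632, 785 and 630.0 CPM. Vehicle was high and the other libraries lay together, but 2 cells gave 73 and 58 of the 276 Vehicle UMIs. Levels without these cells were not computed. The OVA ratio was 0.461 (0.354 to 0.594) with vehicle, past 2-fold, and 0.802 (0.626 to 1.02) with ribavirin, where 1 lay inside the interval. Over all 170 cells the latter was 0.482 (0.376 to 0.613). Ltb, a lymphotoxin chain, was at 611, 216, 436 and 486 CPM, lowest in Vehicle-OVA, with a ratio of 0.353 (0.224 to 0.539) with vehicle and 1.11 (0.826 to 1.49) with ribavirin.

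To see what set ILC2 apart from Cd3-positive cells selected on the same genes, UMIs summed over all 170 ILC2 and over the counterparts of each library were compared with edgeR's quasi-likelihood test, with the library as a block (4 libraries, adjusted p by the Benjamini-Hochberg method). Of 7137 genes tested, 285 were higher in ILC2 (3.99% of the genes) and 325 lower (4.55%), with the 15 genes of the rule left out of the calls. Genes that go along with Cd3 in T cells were bound to differ by the way the classes were split. The 12 genes called higher with the largest folds (Muc5ac, Krt15, Muc5b, Mal, Kcnj16, Slc4a4, Itln1, Bpifb1, Chil1, Kcne3, Aldh1a1 and Oit1) include mucin and other epithelial genes and were at most 30.0 CPM in either library without OVA. Without the 4 epithelial-marker members Chil1 was at -1.07 and not called, the others of the 12 had too few UMIs to be tested, and 466 genes were higher and 544 lower of 7012. The 12 named from that fit were Car2, Timp3, Mctp1, Pde10a, Deptor, Hey1, BC051076, Spry2, Hes1, Dach2, Zbtb10 and Bmp2. Without the Vehicle library 119 were higher and 165 lower. Without Ribavirin-OVA the counts were 178 and 210, and without Vehicle-OVA 200 and 205.

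Hes1, Hey1, Spry2, Deptor, Bcl2 and Kit were higher in ILC2 than in the counterparts in every library. Hes1, a repressor that acts downstream of Notch receptors, was at 1337, 820, 882 and 993 CPM in ILC2, against 116, 62.9, 116 and 136 CPM in the counterparts. Without the 4 epithelial-marker members it was at 1208 in Vehicle-OVA and 742 in Ribavirin-OVA. The groups did not overlap, and the log2 difference was 3.42 (SE 0.191, adjusted p = 6.6e-05, edgeR). Hey1, of the same repressor family, was at 199, 262, 137 and 134 CPM against 1.59, 14.3, 13.8 and 22.3, a log2 difference of 3.84 (SE 0.425, adjusted p = 0.001, edgeR). Spry2, an inhibitor of receptor tyrosine kinase signalling, was higher by 3.50 (SE 0.219) and Deptor, an inhibitor of the mTOR kinase, by 3.63 (SE 0.385). These 4 genes, with Bcl2 (2.07, SE 0.256), which encodes a survival protein, and Kit (2.02, SE 0.235), the receptor of stem cell factor, were called in all 14 fits made over the settings and samples tried.

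Among 27 transcription factors tested, 4 were higher and 6 lower, with a median log2 difference of -0.10 against 0.01 over all genes. Of all genes tested, 3.99% were higher and 4.55% lower. Rora was at 755, 948, 779 and 851 CPM over all 170 ILC2 and 460, 362, 477 and 576 in the counterparts, above them in all 4 libraries (log2 difference 1.02, SE 0.167, adjusted p = 0.0072, edgeR). Klf4 (2.18, SE 0.223), Nr4a1 (2.11, SE 0.152) and Junb (1.14, SE 0.107) were the other factors that were higher. Maf, Batf, Irf4, Prdm1, Nfil3 and Stat5a were lower, Maf by -1.76 (SE 0.252). Nr4a1 and Junb are also genes of rapid activation, and of 13 such immediate early and dissociation genes 8 were higher (Fos, Fosb, Jun, Egr1, Ier2, Dusp1, Zfp36 and Dnajb1) and 1 lower (Ier3), with a median of 1.19. The part of tissue digestion in this was not tested.

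Receptors and enzymes for lipid mediators and neuropeptides were higher or not called, where 3.99% of all genes tested were higher. Of 10 tested, 5 were higher and none lower, with a median of 1.10: Ptgs2, cyclooxygenase 2 (2.28, SE 0.424), Hpgds, the hematopoietic prostaglandin D synthase (2.36, SE 0.372), Ptgir, the prostacyclin receptor (1.87, SE 0.307), Ramp3, a partner of calcitonin-family receptors (1.27, SE 0.240), and Cysltr1, a cysteinyl leukotriene receptor (0.94, SE 0.215). Ptgir was at 94.4, 129, 96.5 and 70.9 CPM in ILC2 against 20.6, 31.5, 20.8 and 46.1. Every one of the 5 was above the counterparts in all 4 libraries. Hpgds was no longer called without the 4 epithelial-marker members (log2 1.42, adjusted p = 0.056, edgeR).

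T cell activation and cell division genes were lower in ILC2, where 4.55% of all genes tested were lower. As the classes were split by Cd3, genes that go along with it in T cells were bound to be lower. Of 15 cell cycle genes 13 were lower and none higher: Mki67 was at 4.97, 0, 3.33 and 0 CPM in ILC2 against 214, 233, 85.8 and 165 in the counterparts (log2 difference -5.98, SE 0.483). Ccnb2 had no UMI in any of the 170 cells, at least 12.1-fold lower than in the counterparts when the floor of 3 UMIs over the class is used. Of 11 costimulation and checkpoint genes, 5 were lower and none higher: Ctla4 (-3.24, SE 0.429), Icos (-1.07, SE 0.199), Cd28 (-3.38, SE 0.271), Lag3 (-4.77, SE 0.730) and Havcr2 (-2.73, SE 0.561). Icos was nonetheless at 219, 466, 359 and 374 CPM in ILC2, against 714, 1284, 603 and 818.

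Il10, the gene of an inhibitory cytokine, gave no UMI in ILC2 of Vehicle and 21.4, 3.33 and 11.8 CPM in the others, against 143, 1568, 24.9 and 603 CPM in the counterparts (log2 difference -5.68, SE 0.405). Penk, the gene of the enkephalin peptides, was lower by -7.36 (SE 0.466), with 1 UMI in all ILC2. Foxp3, the factor of regulatory T cells, was lower by -5.20 (SE 0.520), and 203 genes were lower and 157 higher when counterparts with a Foxp3 UMI were left out. The 12 lower genes with the largest folds were at 0 in all ILC2. They were led by Tnfsf8, the ligand of CD30 (at least 43.4-fold lower), Slc17a6 (at least 17.3-fold), Foxb1 (at least 16.5-fold), Hist1h2ap (at least 16.5-fold), Angptl2 (at least 16.3-fold), Hist1h2ab (at least 15.6-fold) and Sh2d1a, a T cell signalling adaptor (at least 14.9-fold). The other genes of the 12 were Cenpe, Cdca3, Ccnb2, Lrrc32 and Hist1h3c, at least 13.4-, 12.6-, 12.1-, 11.1- and 10.2-fold lower. These bounds are over UMIs pooled from the 4 libraries. Tnfsf8 was at 4.76, 322, 0 and 165 CPM in the counterparts, Slc17a6 at 0, 166, 6.92 and 51.5, and Foxb1 at 0, 94.4, 0 and 72.8, so these 3 had few or no UMIs to be below in the libraries without OVA.

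The type 2 effectors themselves did not pass the test between the classes. Il13 had a log2 difference of -1.80 (SE 0.771, adjusted p = 0.19, edgeR), with ILC2 above the counterparts in Vehicle (44.7 against 4.76 CPM) and below them in the other libraries. Without the 4 epithelial-marker members it was called lower (-1.59, adjusted p = 0.040, edgeR), and over all 14 fits its adjusted p ran from 2.1e-08 to 0.82. The log2 difference was 0.08 (SE 0.529) for Il5, -0.71 (SE 1.00) for Il4 and -0.09 (SE 0.428) for Areg. Arg1 was at 229, 675, 306 and 260 CPM in ILC2 against 82.5, 100.1, 232 and 352 (log2 difference 1.18, SE 0.429, adjusted p = 0.13, edgeR), and was called higher without those 4 members (1.07, adjusted p = 0.0042, edgeR). Il7r, at 991 to 1496 CPM in ILC2, differed by 0.45 (SE 0.188, adjusted p = 0.19, edgeR), and by 0.69 without them (adjusted p = 7.9e-04, edgeR).

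**Figure D3:**
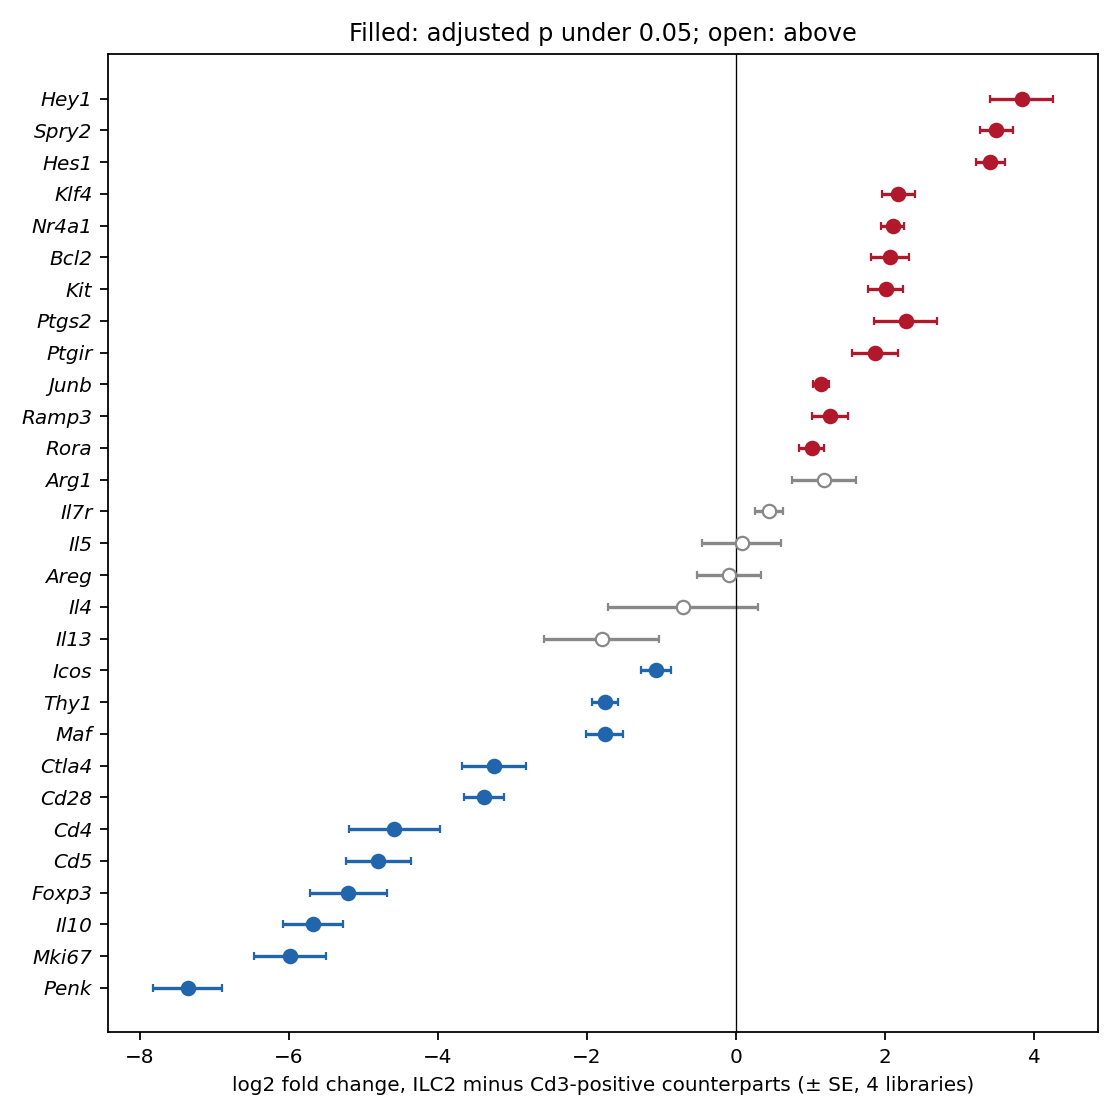
Difference between ILC2 and Cd3-positive counterparts in log2 units (x axis, ILC2 minus counterparts, with SE as bars) for 29 genes (y axis), from edgeR over 4 libraries. Filled points have an adjusted p under 0.05: Hey1, Spry2 and Hes1 lie at 3.42 to 3.84, Penk at -7.36, and the effectors Il5, Areg, Il4 and Il13 are open.

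Across conditions, each OVA library was set beside the library without OVA that had the same vehicle or drug. A gene was called when its CPM ratio was past 2-fold and the exact interval of the ratio left out 1, among genes with at least 20 UMIs over the pair. Over 166 cells, 459 of 2516 genes were higher in Vehicle-OVA than in Vehicle (18.2%) and 208 lower (8.27%), and 603 of 3266 were higher in Ribavirin-OVA than in Ribavirin (18.5%) and 215 lower (6.58%). Over 170 cells, 16.9% of the genes were higher and 8.17% lower with vehicle, and 13.5% higher and 6.95% lower with ribavirin. Genes tested in both pairs numbered 2381, of which 181 were higher in both, 89 lower in both and 6 opposite. The median log2 ratio over all genes was 0.32 with vehicle and 0.38 with ribavirin, and that of 80 ribosomal protein genes -1.04 and -0.96, so ribosomal messages took a smaller part of the RNA in both OVA libraries. The ratios below include these shifts.

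Several receptors and regulators of lymphocytes were higher in both OVA libraries. Ctla4, an inhibitory receptor, was at 14.9, 192, 43.3 and 486 CPM, ratios of 12.9 (3.91 to 66.8) and 11.2 (6.18 to 22.1). Its UMIs came from 3, 4, 5 and 13 of the 170 cells, and 1 cell held 12 of the 24 in Vehicle-OVA. Ikzf2, which encodes the transcription factor Helios, was at 79.5, 432, 43.3 and 407 CPM, ratios of 5.43 (3.06 to 10.2) and 9.41 (5.12 to 18.7). Both OVA libraries lay above both others for both genes, and the calls were the same over 170 cells.

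Hif1a, a transcription factor of the low-oxygen response, was at 109, 552, 146 and 518 CPM, with ratios of 5.05 (3.09 to 8.57) and 3.54 (2.42 to 5.24). It was seen in 16, 21, 27 and 26 of the 170 cells. Birc3, an inhibitor of apoptosis, was at 109, 472, 130.0 and 459 CPM, and Furin, a proprotein convertase, at 134, 584, 143 and 518 CPM. The ratios of Birc3 were 4.32 (2.61 to 7.40) and 3.54 (2.36 to 5.38) and those of Furin 4.35 (2.76 to 7.04) and 3.62 (2.47 to 5.38), so for each of these genes both OVA libraries were close to each other and above both others. Part of this came from single cells. Over the 170 cells, the highest cell in Vehicle-OVA gave 30 of 83 Furin UMIs and the highest for Hif1a 26 of 76. For Birc3 in Ribavirin-OVA the highest cell gave 20 of 70.

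**Figure D4:**
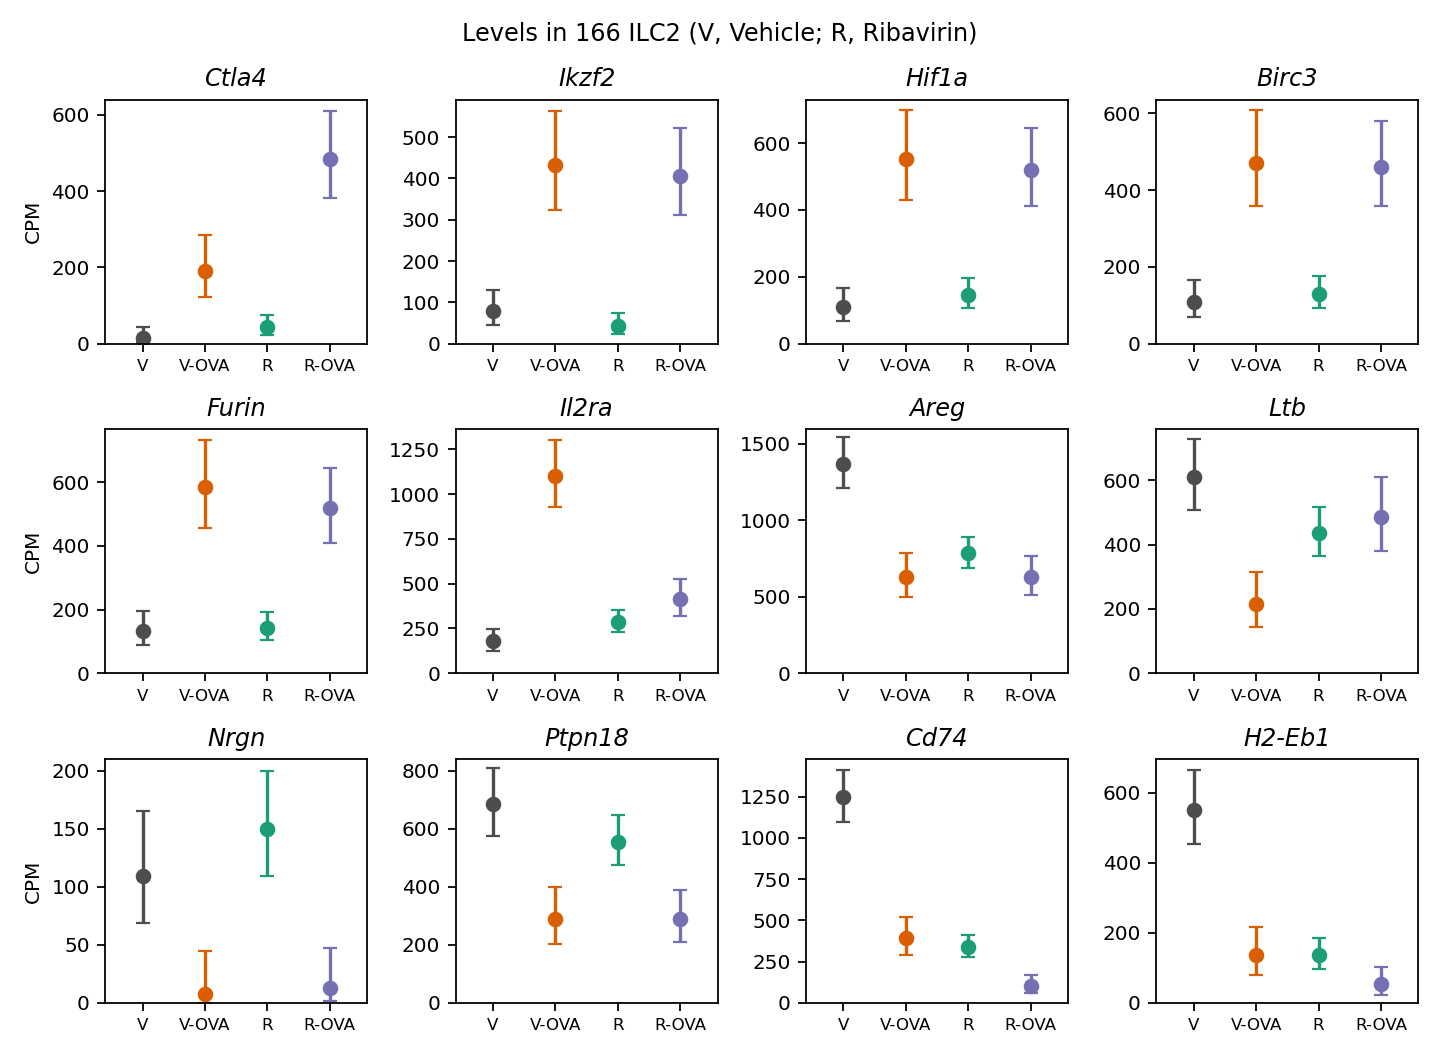
Level in CPM (y axis, from 0) of 12 genes in the 166 ILC2 of each library (x axis: V, Vehicle; V-OVA, Vehicle-OVA; R, Ribavirin; R-OVA, Ribavirin-OVA), with exact 95% Poisson intervals as bars. Ctla4, Ikzf2, Hif1a, Birc3 and Furin are high in both OVA libraries, Nrgn, Ptpn18 and Cd74 low in them within each pair, and Il2ra, Areg and Ltb are past 2-fold only in the vehicle pair. For Cd74 in Vehicle, the highest cells gave 118 and 50 of 251 UMIs.

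The other genes named by the same rule were Tle3, Rc3h2, Klf10, Ankrd44, Cers4, Clcn3 and Nlrc3. Over 170 cells the 12 genes the rule gave were instead Elf3, Ehf, Bpifb1, Lbp, Cp, Adh7, Tspan1, Sult1d1, Muc16, Gabrp, Cldn7 and Krt15, epithelial genes carried by the 4 members set apart above. Of the lists, the alarmin and cytokine receptors had 8 of 16 genes higher and none lower with vehicle and 6 of 19 higher and none lower with ribavirin, with Il18r1 and Il2rb in both. Of all genes, 18.2% and 18.5% were higher. Over 170 cells the receptor counts were 7 of 16 higher and none lower, and 1 of 19 higher and 2 lower. Of all genes, 16.9% and 13.5% were then higher, so the receptor count with ribavirin was below that share. Il18r1, the receptor of interleukin 18, was at 24.8, 120.0, 26.6 and 85.3 CPM, ratios of 4.83 (1.67 to 17.0) and 3.20 (1.23 to 8.92). Of its UMIs in Vehicle-OVA, 12 of 16 came from 1 cell. Il2ra, a chain of the interleukin 2 receptor, was at 179, 1103, 286 and 413 CPM, but 106 of the 138 UMIs of Vehicle-OVA came from 1 cell.

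Costimulation and checkpoint genes were higher in 5 of 5 with vehicle (Icos, Klrg1, Pdcd1, Ctla4 and Cd200r1) and in 1 of 6 with ribavirin (Ctla4). Over 170 cells this was 4 of 5 and 1 of 6. Icos was at 219, 696, 359 and 623 CPM, ratios of 3.18 (2.19 to 4.68) and 1.73 (1.30 to 2.31). Of transcription factors, 6 of 19 and 7 of 22 were higher, with Maf and Rbpj, the DNA-binding partner of Notch, in both, and 0 and 1 (Klf4) lower. Over 170 cells 4 of 20 and 1 of 23 were higher, the second below the share of all genes, and neither Maf nor Rbpj was past 2-fold. Stress granule genes, the subject of the study in macrophages, had 5 of 10 higher with vehicle and 4 of 11 with ribavirin and none lower, and G3bp2, Tia1 and Pabpc1 were in both. G3bp2 was at 99.4, 216, 120.0 and 256 CPM, ratios of 2.17 (1.17 to 4.09) and 2.14 (1.32 to 3.46), but over 170 cells its ratios were 2.10 and 1.71. Over 170 cells 3 of 10 and 1 of 12 stress granule genes were higher, the count with ribavirin being below the share of all genes. The lipid genes Dgat1, of triglyceride synthesis, and Scd2, a desaturase, were higher in both pairs, Dgat1 at 149, 1071, 196 and 597 CPM, with 66 of the Vehicle-OVA UMIs in 1 cell. Over 170 cells the ratio of Dgat1 with ribavirin was 1.95, short of 2-fold.

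Within each pair, antigen presentation genes and single genes such as Nrgn were lower with OVA, the former from Vehicle values that rested largely on a few cells. Nrgn, a calmodulin-binding protein, was at 109, 8.00, 150.0 and 13.1 CPM. That was 22 and 45 UMIs without OVA and 1 and 2 with it, ratios of 0.0732 (0.00177 to 0.453) and 0.0877 (0.0103 to 0.336). Ptpn18, a phosphatase, was at 686, 288, 556 and 289 CPM, ratios of 0.420 (0.283 to 0.610) and 0.520 (0.364 to 0.728), the second short of 2-fold. Other genes named by the rule were Ppp1r11, Pold4, D8Ertd738e, Pfdn5, Fau, Nol7, Tbca, Pla2g16 and Eef1d, and over 170 cells Klk8, Ptprcap, Ifi203, Rad50 and Sh3bgrl3 as well.

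Of 5 antigen presentation genes tested, all 5 were lower with vehicle and 4 with ribavirin, where 8.27% and 6.58% of all genes were lower. Cd74, the invariant chain, was at 1247, 392, 339 and 105 CPM, ratios of 0.314 (0.226 to 0.428) and 0.309 (0.170 to 0.527). Over 170 cells the first was 0.567 (0.456 to 0.703), short of 2-fold. H2-Eb1, a class II chain, was at 551, 136, 136 and 52.5 CPM, ratios of 0.246 (0.139 to 0.413) and 0.385 (0.156 to 0.832). The Vehicle values rest in large part on a few cells. The member with Siglech gave 118 of 251 Cd74 UMIs and 54 of 111 H2-Eb1 UMIs, and the next highest cell for each gene gave 50 and 15. For H2-Aa the 2 highest cells gave 79 and 25 of 137 UMIs. Whether the vehicle pair would be past 2-fold without these cells was not tested. With most Vehicle UMIs of Cd74 in the highest cells, its ratio of 0.314 does not describe most cells. Cd74 was also lower in Ribavirin than in Vehicle-OVA. Against the same Vehicle values, Cd74 and H2-Eb1 were also lower in Ribavirin (0.272 and 0.247), with 4 of 5 antigen presentation genes called. Of interferon-stimulated genes 0 of 6 were higher and 3 lower with vehicle, and 1 of 8 higher and 2 lower with ribavirin. Ifi27l2a, an interferon-induced gene, was at 114, 16.0, 173 and 32.8 CPM, lower in both pairs, and 25 of its 52 UMIs in Ribavirin came from 1 cell.

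Genes of activation did not all follow this pattern. Arg1 was at 229, 432, 306 and 420.0 CPM over 166 cells, ratios of 1.89 (1.25 to 2.86) and 1.37 (0.981 to 1.91), neither past 2-fold. Over 170 cells the first was 2.95 (2.09 to 4.23), with 69 of the 126 UMIs in 1 cell. Rora was at 755, 1383, 778 and 1372 CPM, ratios of 1.83 (1.46 to 2.29) and 1.76 (1.45 to 2.13). Il1rl1 was at 532, 1663, 682 and 2264 CPM and Gata3 at 845, 1815, 875 and 1654 CPM. The cells were selected on both genes, so these levels are a description only and no OVA difference is read from them. Of 15 cell cycle genes, 1 and 2 had enough UMIs to be tested in the 2 OVA pairs, and none was called.

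Ribavirin alone went with fewer calls. Against Vehicle, 91 of 3295 genes were higher (2.76%) and 122 lower (3.7%). Against Vehicle-OVA, Ribavirin-OVA had 83 of 2408 genes higher (3.45%) and 106 lower (4.4%) over 166 cells, and 4.08% higher and 6.18% lower over 170. The genes with the largest ratios mostly rested on single cells. Of those higher in Ribavirin, 414 of 432 BC051076 UMIs and 72 of 73 Clec4n UMIs came from 1 cell each, and Cxcl10, an interferon-induced chemokine, had 51 UMIs in 5 cells. Nav2, a gene of cell migration in neurons, was the exception, with 45 UMIs in 27 of 64 cells against 10 UMIs in 9 of 46, a ratio of 3.01 (1.50 to 6.71).

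Of those lower in Ribavirin than in Vehicle, Siglech and Tcf4 rested on the plasmacytoid-marker member, as did 46 of 59 Ccr9 UMIs and 28 of 55 Tmem123 UMIs. Cxcr4, a chemokine receptor of tissue retention, was at 54 UMIs in 18 cells of Vehicle and 18 UMIs in 14 cells of Ribavirin, a ratio of 0.223 (0.123 to 0.387). Between the OVA libraries it went the other way, at 136 CPM in Vehicle-OVA and 348 in Ribavirin-OVA, a ratio of 2.56 (1.46 to 4.71). With OVA, Ctla4 was 2.53 times (1.58 to 4.20) higher in Ribavirin-OVA, and Sept7, Prdx6 and Inpp4b were the other genes named as higher. Jag1, a Notch ligand, was lower, at 840 CPM in Vehicle-OVA and 243 in Ribavirin-OVA, a ratio of 0.289 (0.193 to 0.424). AA467197, Ero1l, Gem and Tnfrsf9 were also lower, and 68 of 111 Ero1l UMIs and 28 of 47 Tnfrsf9 UMIs in Vehicle-OVA came from 1 cell each.

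Over all 170 cells the genes named between the OVA libraries were Fcgbp, Vmo1, Tff2, Muc5ac and Krt14 as higher in Ribavirin-OVA and Igfbp5, Ceacam1, Alox15, AA467197 and Igfbp3 as lower. Stress granule genes were called in 0 of 10 in Ribavirin against Vehicle and in 0 of 10 in Ribavirin-OVA against Vehicle-OVA over 166 cells. Of all genes, 2.76% were higher and 3.7% lower in the first pair, and 3.45% and 4.4% in the second. At such shares a list this short would hold few or no calls, so these counts say little about the list. G3bp1, the gene of their core protein, was at 144, 296, 143 and 243 CPM, with a ratio of 0.993 (0.606 to 1.65) for Ribavirin over Vehicle.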

How the data were processed

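Single-cell RNA libraries of CD45+ nasal mucosa cells were analysed from the UMI count matrices the authors deposited, whose values are raw UMI counts per gene and cell for 27998 genes. The submitters' processing notes name Cell Ranger 5.0.0 and mm10. Groups were taken from the treatment labels, 1 library each. The members and gene lists were chosen with earlier results of these data known.

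Cells and ILC2 were selected by the limits given above, and NK cells by at least 2 UMIs of Ncr1 and Klrb1c with the same negative genes. UMIs were summed over the cells of a class per library and given as CPM of that sum. Intervals are exact at 95%: Clopper-Pearson for shares, Poisson for levels, conditional binomial for ratios. Epithelial-marker members held at least 10 UMIs of the epithelial and neuron list. Cells were thinned to 1500 UMIs for shares of cells with a UMI. Classes were compared on summed counts with edgeR 4.0.16 (R 4.3.3; TMM, filterByExpr, quasi-likelihood, library as block, calls at an adjusted p under 0.05), with DESeq2 1.42.0 as an alternative. On simulated counts for 6803 genes of this comparison the fit recovered 22% of 2-fold and 76% of 4-fold changes, with 4 unchanged genes among its calls. Scrublet (scanpy 1.11.5) marked 0.556% to 5.27% of cells per library, under the expected 4.12% to 11.3%; marked cells were removed in an alternative only.

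Genes were named by rule: all list members as counts; the 12 largest smaller-of-both ratios each way in the OVA pairs with both intervals leaving out 1; the 5 largest each way in the ribavirin pairs among genes with at least 50 UMIs; and the 12 largest folds each way between classes. Rule genes, mitochondrial, ribosomal, Gm and Rik genes were left out, as were genes lower in ILC2 than over other cells. Some genes that the rule names are not reported here. Genes and cells described outside this rule were chosen after their values were seen. Of the T cell receptor constant genes planned as a further exclusion, 0 are listed in the files used here. Alternatives covered cell limits, gate limits, depth, gene minimum, scaling, tool, and each library left out.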

Additional observations from a re-analysis of the deposited data

Results flagged for a closer look

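A few genes were past 2-fold in opposite directions in the OVA pairs. In each case the difference between the pairs was not tested, since each group is 1 library. Ccl3, a chemokine gene, had a ratio of 8.62 with vehicle and 0.244 with ribavirin over 170 cells, and of 9.98 and 0.348 over 166. In Ribavirin, 29 of its 34 UMIs came from 1 cell. Cxcl2, a chemokine of neutrophil recruitment, had ratios of 2.64 and 0.298 over 170 cells and 3.42 and 0.457 over 166, and 86 of its 151 UMIs in Ribavirin came from 1 cell. Il5 had ratios of 6.11 and 0.209 over 170 cells and 9.12 and 0.348 over 166, and 1 cell each gave most of its UMIs in Vehicle-OVA and in Ribavirin.

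Cxcr4 had ratios of 0.339 with vehicle and 3.49 with ribavirin over 170 cells. Over 166 they were 0.507 and 5.81, the first short of 2-fold. Tcf4, a factor of plasmacytoid dendritic cells, had ratios of 0.315 and 2.47 over 166 cells, and 36 of its 46 UMIs in Vehicle came from 1 cell. Tmem123 had ratios of 0.392 and 2.07 over 170 cells and 0.468 and 2.82 over 166, and 28 of its 55 UMIs in Vehicle came from 1 cell. The part of these single cells in the opposite directions was not tested.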

How the results depend on the processing

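Without replicates, 170 cells limit these data: a gene with a few UMIs can rest on 1 cell, and intervals cover counting error only. No paired analysis was possible because each group is 1 library and the labels carry no replicate numbers to pair groups by; the library was the block between the classes, and a fit of OVA and drug over the 4 libraries, with 1 residual degree of freedom, was not run. The planned exclusion of cells with T cell receptor constant genes was not run, since the files used here do not list them; exclusion by Cd4, Cd8a, Cd8b1, Cd5 and Foxp3 (the T cell genes below), leaving out the epithelial-marker members and leaving out cycling counterparts were added after seeing the data. The cause was not tested for any value below.

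The log2 share ratio was 0.75 for Vehicle-OVA over Vehicle and 1.77 for Ribavirin-OVA over Ribavirin after thinning, and -0.81 for the latter with a mitochondrial limit of 5%. With at least 50 UMIs, higher and lower genes were 185 and 141 (Vehicle-OVA/Vehicle), 180 and 168 (Ribavirin-OVA/Ribavirin), 33 and 34 (Ribavirin/Vehicle) and 46 and 84 (Ribavirin-OVA/Vehicle-OVA). With at least 1 UMI they were 985, 1139, 144 and 268 higher in that order, and 238 and 406 lower in the last 2. The 5% limit gave 132 lower for Ribavirin-OVA/Ribavirin, and 87 higher and 135 lower for Ribavirin-OVA/Vehicle-OVA, where leaving out the epithelial-marker members gave 83 and 106. Excluding by T cell genes gave 70 lower for Ribavirin/Vehicle. Between the classes, no filter gave 525 higher and 798 lower, no epithelial-marker cells 466 and 544, no Foxp3 counterparts 157 and 203, and no cycling counterparts 131 lower. Leaving out 1 library gave 119 to 292 higher and 165 to 268 lower, and DESeq2 243 and 237.

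These log2 values changed sign. With the 5% limit: Areg 0.049 and Rad50 0.14 (Ribavirin-OVA/Ribavirin), Ccr9 0.62 (Vehicle-OVA/Vehicle) and 0.53 (Ribavirin/Vehicle), H2-Ab1 0.46 (Ribavirin-OVA/Vehicle-OVA). With T cell genes excluded: Ccr9 0.16 and Tcf4 0.88 (Ribavirin/Vehicle), and between the classes Areg 0.078. As a mean of single cells: H2-Aa 0.32 and H2-Ab1 0.55 (Ribavirin-OVA/Vehicle-OVA), Prdx6 -0.033 (Vehicle-OVA/Vehicle). Without the epithelial-marker members: H2-Ab1 0.30, Prdx6 -0.47, and between the classes Chil1 -1.07 and Areg 0.16. With a 4-gene sum of at least 3: H2-Ab1 0.27. Between the classes: Il4 0.16 and Il5 -0.18 with DESeq2, Il5 -0.065 with no filter and -0.51 without Foxp3 counterparts, Il13 0.40 and Il7r -0.12 without cycling counterparts, and with 1 library left out Areg -0.57 to 0.38, Il4 -1.63 to 0.45 and Il5 -0.75 to 0.64. Of the other values for single genes, 2187 kept direction and side of the threshold, 112 moved, 128 lost and 21 gained a call.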
